A study of Homo sapiens with 42 samples.

Results

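KCNH2 encodes hERG, the pore-forming subunit of a voltage-gated potassium channel. It was followed here as 1 gene of the 60240 in the deposited table, of which 22168 had enough signal to be tested (a normalised count of at least 10 in at least 3 libraries). It was chosen by its measured values, that is for its difference between decitabine and DMSO in this table. All of its values are therefore given as a description with errors and no test.

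The libraries come from stranded sequencing of total RNA of human acute myeloid leukaemia (AML) cell lines, established cultures of leukaemic cells grown without other cell types. Cells labelled wild type (WT) received decitabine, an analogue of deoxycytidine that is built into DNA and there captures DNA methyltransferases, or the solvent DMSO. Decitabine was given 3 times at 100 nM, at the start (day 0) and again on day 1 and on day 2. RNA was taken at 72 hours. The lines used are SKM-1, OCI-AML3, the sister lines MOLM-13 and MOLM-14 (from 1 patient), and KG-1, each with 3 libraries per treatment, so that 10 groups and 30 libraries entered. Each line is a single genetic background, and the labels do not say whether the replicates were separate cultures, so that the errors describe how these libraries vary, a variation that may be technical.

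The hERG channel opens on depolarisation, passes rapidly into an inactivated state and recovers from it on repolarisation, which lets it carry the rapid delayed rectifier current that ends the cardiac action potential. Inherited loss of this current, or its block by many drugs, lengthens the QT interval. Outside the heart, hERG has been described in leukaemic cells, where the full-length subunit and a shorter one with a different amino terminus occur, and where it has been found in membrane complexes with the integrin beta 1 subunit, the VEGF receptor FLT1 and the chemokine receptor CXCR4.

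In the GRCh38 annotation of GENCODE 29, KCNH2 (ENSG00000055118) lies on chromosome 7 from 150944961 to 150978315 on the minus strand. It has 6 annotated transcripts, 3 of them protein coding. The coding transcript of 15 exons starts at 150978315 and encodes the long subunit. Another, of 11 exons, starts within the gene at 150955906 and encodes the short one. The deposited table has 1 value per gene, so the 2 starts cannot be told apart in it. No other GENCODE 29 gene overlaps KCNH2, while RefSeq places 1 noncoding gene, LOC124901776, inside its span from 150975318 to 150977355.

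The sequences ahead of the starts of the long and the short form are shown because decitabine acts on the methylation of cytosine in CG pairs. Each is printed 5′ to 3′ on the minus strand of GRCh38.p14, from RefSeq, and ends at the base before the most upstream annotated start of RefSeq or GENCODE 29, with CG pairs in capitals. Ahead of the long form, chr7:150978322-150978571 holds 29 CG pairs in 250 bases, in a region that belongs to no exon. Ahead of the short form, chr7:150955907-150956054 holds 10 CG pairs in 148 bases and lies within an intron of the long transcript.
KCNH2 upstream start: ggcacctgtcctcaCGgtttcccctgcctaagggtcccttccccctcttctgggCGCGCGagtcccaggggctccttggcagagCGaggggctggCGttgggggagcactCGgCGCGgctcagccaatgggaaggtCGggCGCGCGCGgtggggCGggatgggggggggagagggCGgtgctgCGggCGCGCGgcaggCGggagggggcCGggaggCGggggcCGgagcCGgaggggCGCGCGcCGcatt
KCNH2 internal start: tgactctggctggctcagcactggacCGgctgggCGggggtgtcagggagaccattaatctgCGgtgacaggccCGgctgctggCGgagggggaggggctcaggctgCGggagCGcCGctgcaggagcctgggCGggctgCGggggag
Counted over the RefSeq promoter window of 300 bases (250 before the start and 50 after it), the upstream start had 39 CG pairs, and 8.71% of 35116 promoters in that table had as many or more. The internal start had 22, reached or passed by 37.7% of promoters. The other 3 RefSeq starts of KCNH2 had 5, 26 and 30, and the median promoter had 14. Methylation was not measured, so these counts describe the sequence only.

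Depth was estimated from what 1 read is worth in each library. Replicate 2 of both treatments was shallow in OCI-AML3, MOLM-14 and KG-1, with 1.97 to 4.59 (in units of 1e+06 reads in genes) in these 6 libraries. The other 24 had 12.6 to 75 in the same units. The mean KCNH2 value without these 6 is given where it differs.

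KCNH2 was higher after decitabine in every line, from starting levels that differed widely. Values are normalised counts, that is estimated reads scaled between libraries by the authors. In KG-1 the DMSO libraries had 28.2, 25.2 and 19.1 and the decitabine libraries 137.7, 159.2 and 133.9 (replicates 1, 2 and 3). The lowest decitabine library stood 105.7 above the highest DMSO library, and the means of 24.1 ± 4.66 and 144 ± 13.7 (SD, n = 3 each) differed 5.95-fold. In MOLM-14 the DMSO libraries had 20.3, 47.4 and 29.9 and the decitabine libraries 133.9, 115.7 and 113.6. The groups were again apart, by 66.2, with means of 32.6 ± 13.7 and 121 ± 11.1 (SD, n = 3 each) and a ratio of 3.72. The shallow DMSO values of 25.2 (KG-1) and 47.4 (MOLM-14) rest on only 3.79 and 4.72 estimated reads. Without the shallow libraries the means went from 23.6 to 135.8 (KG-1) and from 25.1 to 123.8 (MOLM-14).

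In its sister line MOLM-13 the gene stayed low under both treatments. The DMSO libraries had 2.79, 1.02 and 3.74 and the decitabine libraries 6.28, 7.43 and 6.79. All 3 decitabine libraries were above all 3 DMSO libraries, but only by 2.55. The means were 2.52 ± 1.38 and 6.83 ± 0.576 (SD, n = 3 each), a ratio of 2.72 that rests on 3.30 to 13.4 estimated reads per DMSO library and 12.9 to 18.6 per decitabine library. In these deep libraries, 3 reads were worth 0.838 to 1.46.

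OCI-AML3 and SKM-1 had almost no KCNH2 signal in DMSO. In SKM-1, 2 DMSO libraries were listed at 0 and the other at 0.333, about 1.18 reads, where 3 reads would be worth 0.848 to 0.976. Its decitabine libraries had 36.1, 39.1 and 37.1, from 96.3 to 106.8 estimated reads each. They lay at least 35.8 above every DMSO library and had a mean of 37.4 ± 1.5 (SD, n = 3). In OCI-AML3, 2 DMSO libraries were listed at 0 and the other at 0.996, again about 1 read (1.07), but the worth of 3 reads ran from 2.80 to 20.7 there. Its decitabine libraries had 13.6, 60 and 8.05, from only 18.0, 8.09 and 7.53 estimated reads. The highest of them is the shallow replicate 2, and the other libraries had 8.05 and 13.6, so that the mean of 27.2 ± 28.5 (SD, n = 3) rests on that library and was 10.8 without it. No ratio is given for these lines, since their DMSO values rest on about 1 read. In bulk RNA, a change in the number of cells that express a gene and a change in its RNA per cell cannot be told apart.

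**Figure D1:**
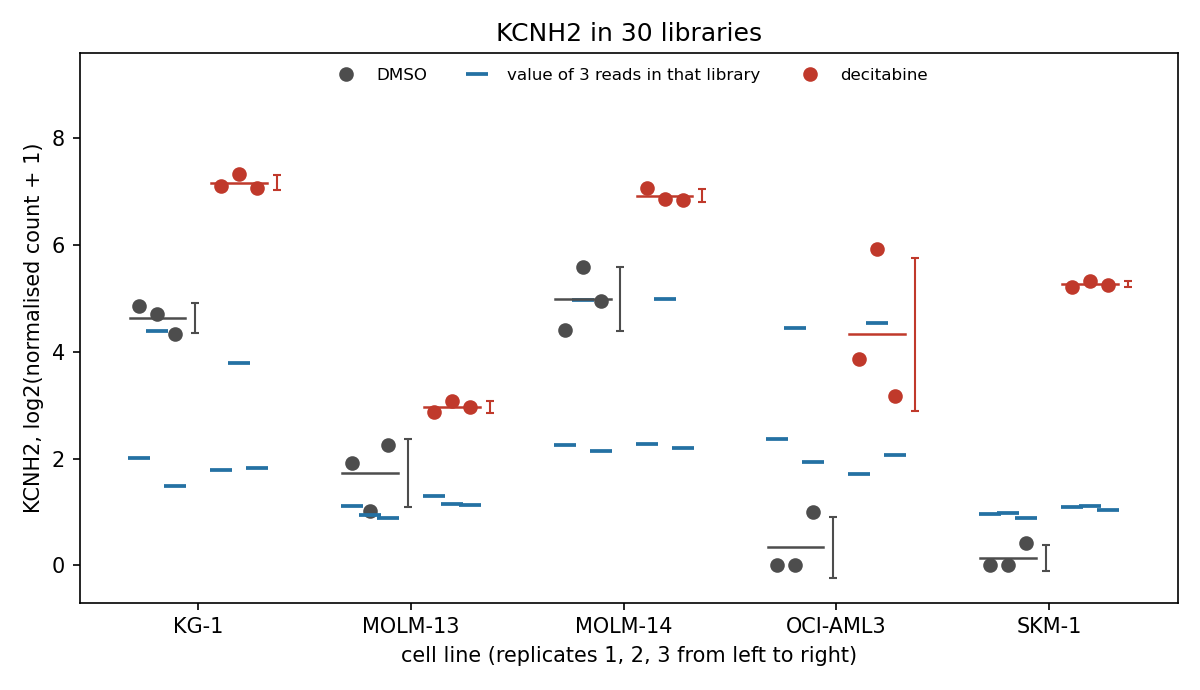
KCNH2 in each of the 30 libraries as log2(normalised count + 1), with DMSO in grey and decitabine in red, replicates 1 to 3 from left to right, horizontal lines at the group means and bars for the SD (n = 3). Blue ticks mark what 3 reads are worth in that library. In each line the decitabine points lie above the DMSO points, and the high blue ticks mark the shallow replicate 2 of OCI-AML3, MOLM-14 and KG-1.

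The order of the lines was partly kept between treatments. In DMSO, MOLM-14 (20.3 to 47.4) and KG-1 (19.1 to 28.2) overlapped at the top. MOLM-13 (1.02 to 3.74) came next, and OCI-AML3 (0 to 0.996) and SKM-1 (0 to 0.333) overlapped at the bottom, where the depth of the OCI-AML3 libraries does not allow a finer order. After decitabine, KG-1 (133.9 to 159.2) and MOLM-14 (113.6 to 133.9) met at 133.9. SKM-1 (36.1 to 39.1) lay inside the range of OCI-AML3 (8.05 to 60), but above OCI-AML3 without its shallow library (8.05 to 13.6). MOLM-13 (6.28 to 7.43) was below every other line. It thus went from the middle of the order to its end, clearly so against SKM-1. Against OCI-AML3 this rests on 8.05 over 7.43, with the 8.05 from 7.53 estimated reads, so their order is uncertain. Per kilobase of the 5.877 kb of exons, the decitabine means were 24.4 in KG-1, 20.6 in MOLM-14, 6.37 for SKM-1, 4.63 for OCI-AML3 and 1.16 for MOLM-13. That of OCI-AML3 is carried by its shallow library.

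The sister lines differed under both treatments. MOLM-14 had 20.3 to 47.4 in DMSO against 1.02 to 3.74 in MOLM-13, and 113.6 to 133.9 after decitabine against 6.28 to 7.43. The 2 lines also differed in depth, at 1.97 to 17.3 (1e+06 estimated reads per library) for MOLM-14 and 42.9 to 75 for MOLM-13, so that line and depth cannot be told apart. MOLM-14 is known only from sample labels and columns, as the design text of the series leaves it out.

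On the log2(normalised count + 1) scale, fitted with limma over all tested genes, the difference of decitabine minus DMSO was 5.13 for SKM-1, 3.99 for OCI-AML3, 2.54 for KG-1, 1.94 in MOLM-14 and 1.24 in MOLM-13 (SE 0.50 in each line). This scale understates the change of a low gene, and its order of lines depends on the pseudocount. With 10 in place of 1, the values were 2.23 for SKM-1, 2.17 for KG-1, 1.67 for MOLM-14, 1.59 for OCI-AML3 and 0.43 for MOLM-13. The order by normalised counts was another one: the decitabine means were higher by 119.4 (KG-1), 88.5 (MOLM-14), 37.3 (SKM-1), 26.9 (OCI-AML3) and 4.32 (MOLM-13). Between replicates the log2 values had an SD of 0.174 (SKM-1), 0.219 (KG-1), 0.429 (MOLM-14), 0.457 (MOLM-13) and 1.09 (OCI-AML3). The SE given for each line is the same value because it comes from a spread pooled over all groups. It is therefore too small for OCI-AML3 and too large for SKM-1.

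The mean of the 5 differences was 2.97 (SE 0.22), against a median of 0.06 over all 22168 tested genes. KCNH2 ranked 21 from the highest, and without the 6 shallow libraries the mean was 2.83, with 2.50 for KG-1, 2.28 for MOLM-14 and 3.03 for OCI-AML3. By line, it ranked 40 in OCI-AML3, 79 in SKM-1, 213 in KG-1, 569 in MOLM-13 and 767 in MOLM-14. The median difference of all genes was between 0.01 and 0.08 in each line. In MOLM-14, with 1 of the 2 highest KCNH2 levels, 3.46% of genes had a larger difference. The ranks describe where a gene chosen for this difference stands and support nothing further.

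**Figure D2:**
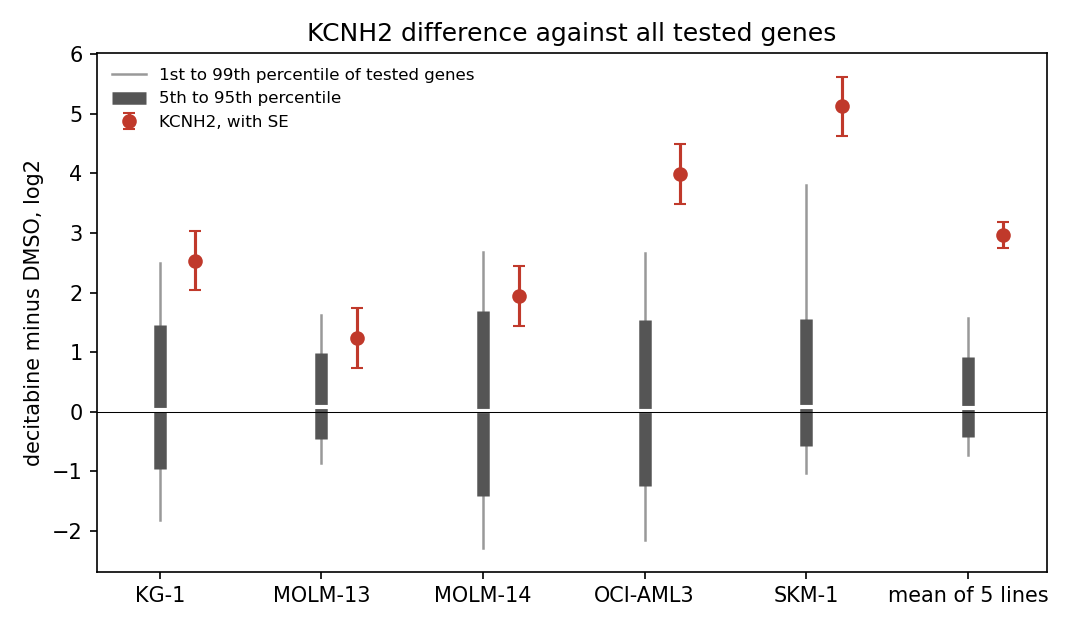
Decitabine minus DMSO on the log2(normalised count + 1) scale for KCNH2 (red, with its SE) beside the spread over the 22168 tested genes in each line and on the mean of the 5 lines. Thick bars span the 5th to 95th percentile with the median in white and thin lines the 1st to 99th. KCNH2 lies above the 95th percentile in all 6 comparisons, and within the 99th in MOLM-13 and MOLM-14. The SE drawn for the lines comes from a spread pooled over all groups and is not each line's own.

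All 3 decitabine libraries were above all 3 DMSO libraries in 5 of 5 lines for KCNH2. The share of tested genes of which this holds was 10.2% in KG-1, 22.8% in MOLM-13, 11.2% in MOLM-14, 10.1% in OCI-AML3 and 29.2% in SKM-1, and 0.501% (111 genes) in every line at once. The rule that chose KCNH2 used this contrast, so nothing is read from the comparison with those shares. KCNH2 had the fourth of the 111 differences by size on the mean of the 5 lines. The voltage-gated potassium channel accessory subunit KCNE3 and CXCR4, both on the list of hERG partners below, are among the 111.

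The labelled identity of the cells was checked on markers. The 6 leukocyte markers, PTPRC (CD45) among them, summed to 25683 to 46142 in DMSO and 28861 to 52466 in decitabine libraries. The 5 myeloid markers summed to 2651 to 58598 (median 10309) and 5929 to 46527 (median 18704). On the mean of the 5 lines 3 of the 6 leukocyte and 2 of the 5 myeloid markers were called (limma, Benjamini-Hochberg adjusted p below 0.05, met by 19.5% of all tested genes). Of 9 cardiomyocyte markers, MYL7 and NPPB were listed at 0 in all 30 libraries and MYH7 reached at most 1.00. Their sum was 5.5 to 265.3 in DMSO (median 38.0) and 7.89 to 260.7 in decitabine libraries (median 49.3), carried by ACTN2 (up to 207.5) and TNNI3 (up to 191.7). Of the 4 tested, TNNC1 alone was called on the mean of the 5 lines, with a difference of 0.97. The sums of 5 neuron markers were 28.2 to 159.3 in DMSO and 7.81 to 74.5 in decitabine libraries. Those of 5 epithelial markers, with KRT5 at 0 throughout, were 2.28 to 561.2 and 17.8 to 586.5, and those of 5 fibroblast markers 4.96 to 139.8 and 6.38 to 304.5. The part of the markers in the KCNH2 values was not tested.

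In DMSO the mean of KCNH2 was above 5 in 2 lines and that of KCNH4 in 3. The DMSO mean was also above 5 for KCNH1 in MOLM-14 (5.38) and for KCNH6 in KG-1 (12.1, carried by 30.4 in the shallow replicate 2). After decitabine the mean was above 5 in all 5 lines for KCNH2, in 3 for KCNH4 and in 1 line each for KCNH1 (KG-1) and KCNH7 (MOLM-13). The KCNH genes encode the EAG (KCNH1, KCNH5), ERG (KCNH2, KCNH6, KCNH7) and ELK (KCNH3, KCNH4, KCNH8) channels. Of the other 7, only KCNH1 and KCNH4 had enough signal to be tested. On the mean of the 5 lines 0 of these 2 were called by limma, against that share of 19.5% of all tested genes. The difference was 0.22 (SE 0.21, limma adjusted p = 0.536) for KCNH4 and 0.07 (SE 0.42, limma adjusted p = 0.941) for KCNH1, with a median of 0.14 against 0.06 for all genes. At an unadjusted limma p below 0.05 the count was also 0. Without the 6 shallow libraries KCNH4 was called at the threshold (0.35, limma adjusted p = 0.0499).

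KCNH4, of the ELK group, had the highest levels of the other family members. In MOLM-13 it had 24.7, 30.8 and 31.7 in DMSO and 30.9, 29.9 and 31.8 in decitabine libraries, which overlap. In SKM-1 it had 19.8, 15.7 and 17.8 in DMSO and 13.6, 16.1 and 13.4 in decitabine libraries, so that its ranges overlapped where those of KCNH2 were far apart. Per kilobase of exons, the DMSO mean of KCNH4 was 7.41 in MOLM-13 and 4.54 in SKM-1, against 0.428 and 0.0189 for KCNH2. After decitabine KCNH2 had 6.37 per kilobase in SKM-1 against 3.66 for KCNH4, so the order of the 2 genes turned in that line. In MOLM-13 it did not, with 1.16 for KCNH2 and 7.86 for KCNH4.

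The closest relatives of hERG were low. KCNH6 was below 5 in all libraries but 1, the shallow replicate 2 of KG-1 in DMSO, with 30.4, and in SKM-1 it was listed at 0 in all DMSO libraries and had 0.649 to 1.05 after decitabine. KCNH7 was detected in every MOLM-13 library, with 3.56, 2.66 and 6.46 in DMSO and 11, 4.91 and 8.71 in decitabine libraries, which overlap. It was listed at 0 in all libraries of KG-1 and MOLM-14, the lines with the most KCNH2. KCNH3 did not pass the filter, and in SKM-1 had 3.50, 3.18 and 3.08 after decitabine against 0, 0.787 and 0 in DMSO. KCNH1, KCNH5 and KCNH8 reached at most 13.6, 2.97 and 13.3.

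**Figure D3:**
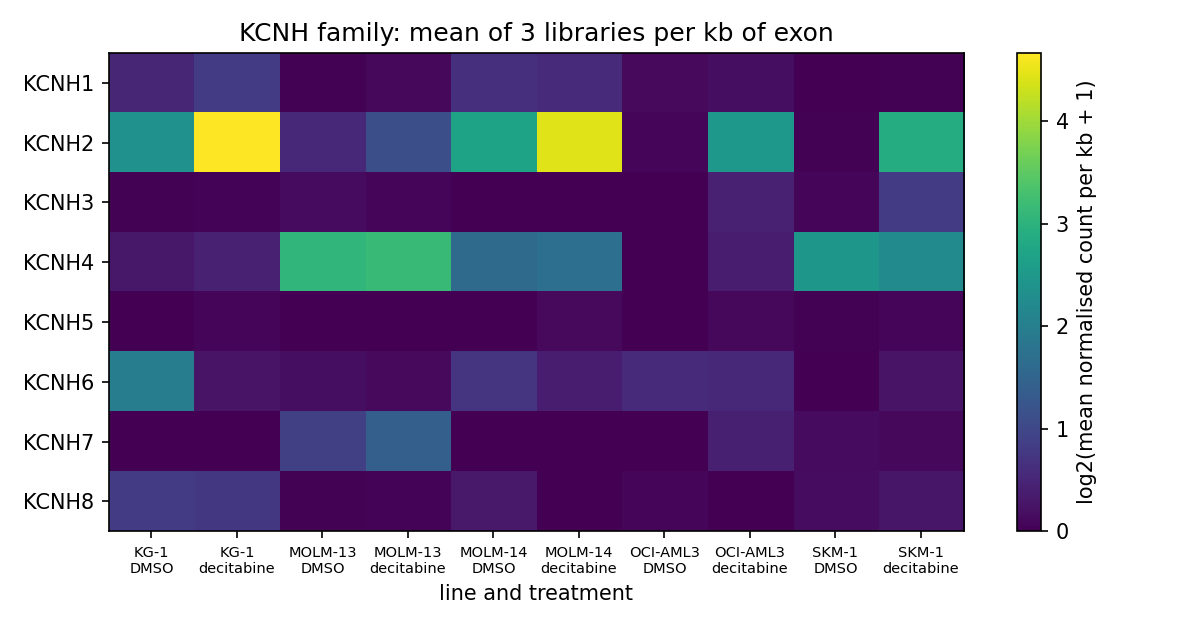
Levels of the 8 KCNH genes as log2(mean normalised count per kb of exons + 1), 1 row per gene and 1 column per line and treatment (mean of 3 libraries), brighter for higher. KCNH2 is the brightest row in KG-1 and MOLM-14 and brighter after decitabine in each line, while KCNH4 is brightest in MOLM-13 under both treatments.

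A list of 30 genes whose products are known to assemble with, fold, traffic or modify hERG was read beside it. Of the 29 tested, 7 rose, 6 fell and 16 were not called on the mean of the 5 lines, where 12% of all tested genes rose and 7.52% fell. The median difference was 0.07 against 0.06 for all genes. By line the counts of higher and lower calls were 6 and 0 in KG-1, 1 and 1 in MOLM-13, 2 and 2 in MOLM-14, 3 and 2 in OCI-AML3, and 5 and 1 in SKM-1. Of all tested genes, 3.12% rose and 0.663% fell in KG-1, 1.45% and 1.67% in MOLM-13, 6.26% and 4.77% in MOLM-14, 3.74% and 1.64% in OCI-AML3, and 5.7% and 3.32% in SKM-1. In either direction the shares were 3.78%, 3.13%, 11%, 5.37% and 9.02%.

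Among the accessory subunits, KCNE3 rose. It had 46.2, 40.4 and 65.4 in DMSO and 127.3, 179.3 and 180.7 in decitabine libraries of KG-1, and 886.3, 967.1 and 927.6 against 1397, 1364 and 1540 in SKM-1. The groups were apart in all 5 lines. The mean difference was 0.96 (SE 0.08, limma Benjamini-Hochberg adjusted p = 3.27e-09), with 1.67 in KG-1, 1.09 in OCI-AML3, 0.85 in MOLM-14, 0.63 in SKM-1 and 0.59 in MOLM-13. The last of these was not called. KCNE2, described as a partner of hERG in the heart, was too low to test, with a highest value of 5.42, and KCNE1 (0.17, limma adjusted p = 0.858) and KCNE4 (-0.65, limma adjusted p = 0.230) were not called.

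Of the membrane partners, CXCR4 rose by 0.68 (SE 0.06, limma Benjamini-Hochberg adjusted p = 1.02e-08). Its values in KG-1 were 184.5, 139.4 and 199.3 in DMSO and 440.0, 416.3 and 474.6 after decitabine, and it was called in each line except MOLM-13, where the means were 691.1 and 780.1. ITGB1, the integrin beta 1 subunit, rose by 0.26 (limma adjusted p = 0.00525). FLT1 differed by 0.40 and was not called (limma adjusted p = 0.413).

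Of the enzymes, SGK1, a kinase that raises the surface level of several channels, had the largest difference of the list at 1.79 (SE 0.23, limma Benjamini-Hochberg adjusted p = 3.08e-06). In MOLM-13, where KCNH2 was lowest after decitabine, SGK1 had 12.6, 10.5 and 27.4 in DMSO and 125.2, 97.3 and 155.9 in decitabine libraries. In OCI-AML3 it had 20.1, 41.2 and 15.9 against 26.7, 6.35 and 31.6, ranges that overlap, and a difference of -0.40. PRKACA, a catalytic subunit of protein kinase A, rose by 0.39 (limma adjusted p = 7.65e-05). TRIOBP, which binds the channel, rose by 0.45 (limma adjusted p = 0.00106), and CALR, a chaperone of the endoplasmic reticulum, by 0.23 (limma adjusted p = 0.0184).

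The chaperone gene HSP90AB1 fell by 0.29 (limma Benjamini-Hochberg adjusted p = 1.67e-06), with a lower mean in 5 of 5 lines and calls in 3. The chaperones HSPA8 and HSP90AA1 and the co-chaperone BAG2 fell by 0.20, 0.16 and 0.15, while HSPA1A, DNAJA1, DNAJB12, DNAJB14, FKBP8 and STUB1, of the same list, were not called. The remaining falls were in ALG10B, by 0.24, and in the adaptor YWHAE, by 0.16.

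Across the lines the responses of the partners were not alike. By limma's F-test of equal differences, 7 of the 29 differed between lines (Benjamini-Hochberg adjusted p below 0.05), where 9.46% of all tested genes did. They were SGK1, KCNE3, CXCR4, CALR and PRKACA, with the calnexin gene CANX and the ubiquitin ligase gene NEDD4, neither called on the mean. KCNH2 was not tested in this way.

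**Figure D4:**
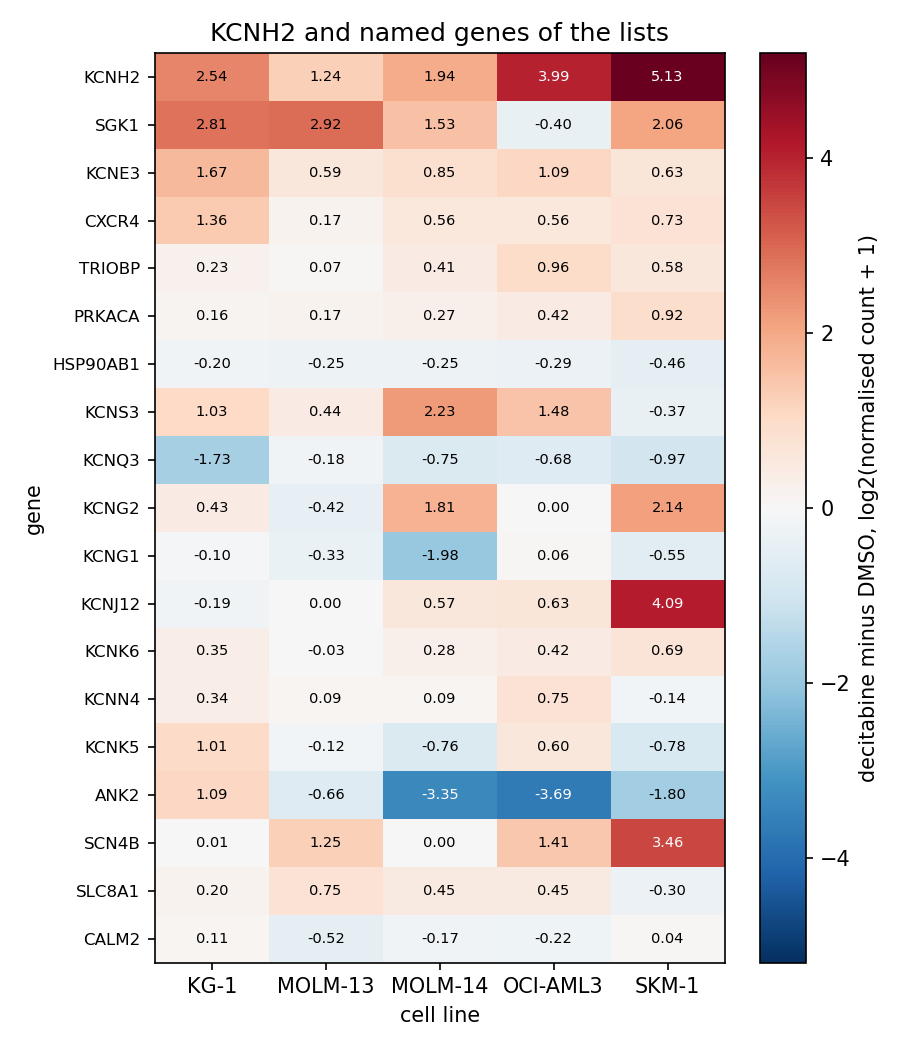
Decitabine minus DMSO per line, on the log2(normalised count + 1) scale, for KCNH2 and the named partners and channels, in red where higher after decitabine and in blue where lower, with each value printed. KCNH2 and KCNE3 are positive in all 5 lines, as are CXCR4, TRIOBP and PRKACA, while SGK1 is negative in OCI-AML3 alone.

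Other potassium channel genes were called about as often as all tested genes, of which 12% rose and 7.52% fell. The counts include KCNG2 and KCNJ12, whose calls are not read for the reason given below. Of 32 other voltage-gated channel genes 19 were tested, and 2 rose, 2 fell and 15 were not called on the mean of the 5 lines, with a median of 0.14 against 0.06 for all genes. The electrically silent subunit genes KCNS3 (0.96, limma adjusted p = 0.0409) and KCNG2 (0.79, limma adjusted p = 0.0429) rose near the threshold. KCNG2 passed the filter only through the MOLM-14 decitabine libraries, where it was highest, so nothing is read from its call. The call of KCNS3 was lost in 24 of 30 fits that left out 1 library (limma adjusted p up to 0.0730) and that of KCNG2 in 20 of the 27 that kept it above the filter (up to 0.0791). KCNQ3, a subunit of the M current, fell by 0.86 (limma adjusted p = 0.00493), and KCNG1 by 0.58 (limma adjusted p = 0.00421). The KCNG1 fall was -1.98 in MOLM-14 and was not called without that line.

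Of 39 channel genes of the other potassium families 19 were tested, and 3 rose, 0 fell and 16 were not called, beside the same 12% and 7.52%, with a median of 0.23 against 0.06. KCNJ12, an inward rectifier, was listed at 0 in all SKM-1 DMSO libraries and had 16.6, 13.9 and 17.8 after decitabine. SKM-1 is the line in which KCNH2 also came from near 0, but KCNJ12 stayed at or below 2.75 in the libraries of the other 4. Its counts are uncertain because of the near-identical gene KCNJ18. KCNJ12 passed the filter only through the SKM-1 decitabine libraries, where it was high, so nothing is read from its call. KCNK6 rose by 0.34 (limma adjusted p = 0.00034), and the calcium-activated channel KCNN4 by 0.23 (limma adjusted p = 0.0493), a call lost in 25 of 30 fits without 1 library (up to 0.0865). At an unadjusted limma p below 0.05, 6 were higher and 0 lower. KCNK5 moved in opposite directions, by 1.01 in KG-1, -0.76 in MOLM-14 and -0.78 in SKM-1, each called, with a mean of -0.01.

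Of 31 genes that shape the cardiac action potential with hERG, 23 were tested, and 3 rose, 2 fell and 18 were not called, beside 12% and 7.52% of all tested genes. The median was 0.17 against 0.06. The calls were KCNJ12 (above), the sodium channel subunit SCN4B (1.23, limma adjusted p = 0.0135, with 3.46 in SKM-1) and the sodium-calcium exchanger SLC8A1 (0.31, limma adjusted p = 0.0161) among those that rose. Both KCNJ12 and SCN4B passed the filter only through the SKM-1 decitabine libraries, where they were high, so nothing is read from their calls. The SCN4B call was lost with a pseudocount of 0.1 and the SLC8A1 call without MOLM-13 or OCI-AML3, with trimmed-mean scaling (limma adjusted p = 0.0766) and under quantile normalization (0.0757). The ankyrin gene ANK2 fell by 1.68 (limma adjusted p = 0.00358), a call lost without MOLM-14, and CALM2, 1 of 3 calmodulin genes, fell by 0.15 (limma adjusted p = 0.0484, lost in 21 of 30 fits without 1 library). The count of 5 depends on the fit: 10 were called without the 6 shallow libraries, and 11 with a replicate block and also with library weights. KCNQ1, whose channel carries the slow current beside hERG, differed by 0.09 and was not called (limma adjusted p = 0.830).

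On the mean of the 5 lines, the tested neighbours of KCNH2 had smaller differences than it, as its choice by this contrast favours. In MOLM-13, ATG9B (1.79), NOS3 (1.40) and ASIC3 (1.38) were above KCNH2 (1.24). The NOS3 value there rests on 33.6 in decitabine replicate 3, beside 5.41 and 7.72 in replicates 1 and 2. In MOLM-14, GIMAP4 (2.66) and NOS3 (2.10) were above KCNH2 (1.94), an order that depends on the shallow replicate 2. GIMAP4 had 53.8 in that decitabine library and 3.98 and 4.50 in the others. NOS3 had 0 in that DMSO library and 17.9 and 16.2 in the others. Of 30 protein-coding genes whose start lies within 500 kb of the KCNH2 start, 22 were tested, and 6 rose, 1 fell and 15 were not called, beside 12% and 7.52% of all tested genes, with a median of 0.04 against 0.06. The nearest of those that rose is NOS3, the endothelial nitric oxide synthase, which starts 12.7 kb away on the other strand. It rose by 1.47 (SE 0.47, limma adjusted p = 0.0274), from low and uneven values: in SKM-1 it had 11.1, 18.6 and 15.2 in DMSO and 22, 29.1 and 25.7 after decitabine, and in KG-1 2.69, 0 and 5.15 against 23.2, 0 and 10.7. It was called in no single line. The call was lost without decitabine replicate 1 of KG-1 (limma adjusted p = 0.0530), without decitabine replicate 3 of MOLM-13 (limma adjusted p = 0.0551), without MOLM-13, OCI-AML3 or SKM-1 as a whole, and with a pseudocount of 0.1 (limma adjusted p = 0.135). Its reads cannot be told apart from those of ATG9B, which overlaps it on the opposite strand, if strand was not used in counting.

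Farther away, GIMAP4, a GTPase of lymphoid cells, rose by 1.64 (limma adjusted p = 0.000507). GIMAP4 passed the filter only through the SKM-1 decitabine libraries, where it was high, so nothing is read from its call. Its difference was 3.38 in SKM-1, with 6.78, 12.4 and 8.16 in DMSO and 101.0, 100.2 and 104.3 after decitabine. SMARCD3 (0.85, limma adjusted p = 0.0233), the diamine oxidase gene AOC1 (0.95, limma adjusted p = 0.0416) and the anion exchanger SLC4A2 (0.39, limma adjusted p = 0.00292) rose less. The AOC1 call was lost in 20 of 30 fits without 1 library, and that of SMARCD3 without MOLM-13, OCI-AML3 or SKM-1 and under quantile normalization (limma adjusted p = 0.0976). CHPF2, beyond the 6 largest and named after its value was seen, rose by 0.22. The 1 fall was in AC021097.2, by 0.32, which overlaps ABCF2 and is uncertain for that reason.

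**Figure D5:**
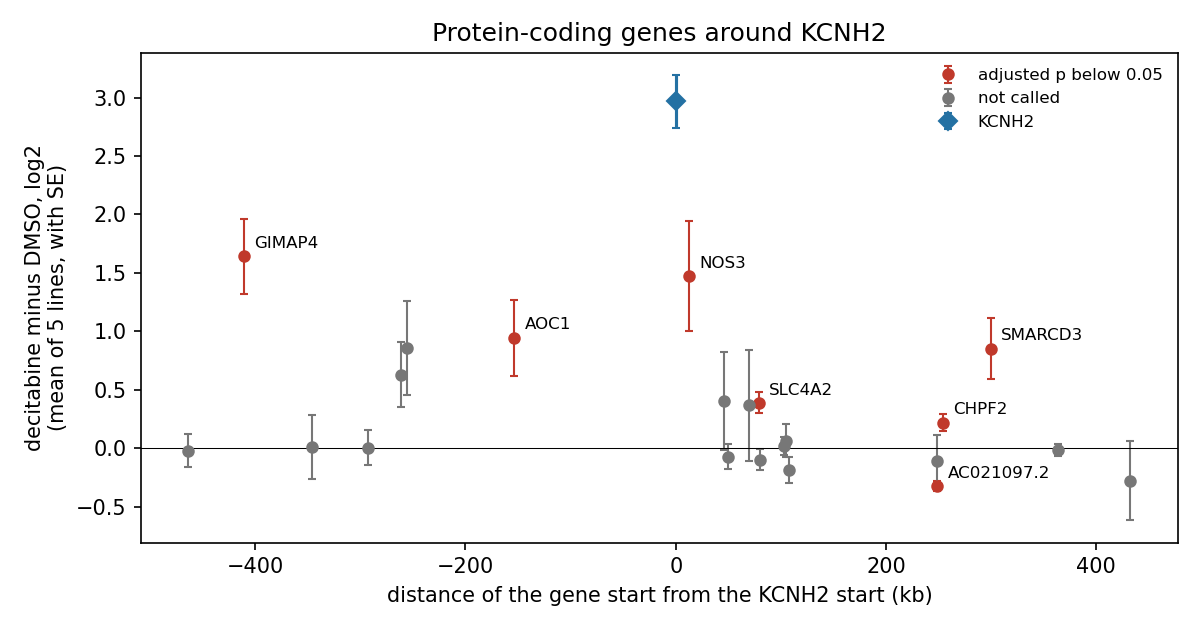
Mean decitabine minus DMSO difference over the 5 lines (log2(normalised count + 1), bars for the SE) against the distance of each tested gene's start from that of KCNH2 in kb, with called genes in red and the others in grey. KCNH2 (blue diamond) is at 2.97, and the highest of its neighbours, GIMAP4, at 1.64. GIMAP4 passed the filter only through the SKM-1 decitabine libraries, where it was high.

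The genes whose level followed KCNH2 most closely were looked for among 15126 other tested protein-coding genes, by Pearson's r over the 10 group means of log2(normalised count + 1). This measure combines differences between lines with those between treatments, shares the libraries of KCNH2, and is a description over 10 points. SQSTM1, the autophagy receptor p62, came first with 0.935. TCP11L2 followed with 0.9, GDPGP1 with 0.875 and NDST2, a heparan sulphate sulphotransferase, with 0.868. The perforin gene PRF1 (0.863), the phosphatase DUSP10 (0.862), the brain proteoglycan BCAN (0.861), CLSTN3 (0.860), NABP1 (0.859) and the phospholipid flippase ATP9A (0.855) completed the 10.

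SQSTM1 was also first by Spearman's rho over the 30 libraries, with 0.818, followed by PRF1 (0.811), KIAA0513 (0.806), the keratin KRT8 (0.805) and ATP9A (0.801). The DMSO and decitabine means of SQSTM1 were 1571 and 2204 in KG-1, 1308 and 2527 in MOLM-14, and 755 and 1596 in OCI-AML3. They were 874 and 1375 in SKM-1 and 1106 and 1361 in MOLM-13, the lines with the lowest means after decitabine. PRF1 was also highest in KG-1 and MOLM-14, but in KG-1 its means were 130.2 in DMSO and 112.9 after decitabine. Of the 10 genes, 5 were also among the 10 nearest by Pearson's r over libraries and 2 when MOLM-14 was left out, so the order of the list depends on the measure and on that line.

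The 12 genes named by likeness lie on chromosomes other than 7. The CG pairs in their RefSeq promoter windows ranged from 2 to 65, where the upstream KCNH2 start had 39: SQSTM1 had 32 to 38 CG pairs over its starts and ATP9A 65, PRF1 had 9 and KRT8 2.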

How the data were processed

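KCNH2 was read in 30 libraries of 5 lines. The authors deposited 1 table of 60240 genes whose values, per its name, are estimated counts normalised with DESeq2. These deposited values were used as a signal per gene, made by the authors by scaling counts per the table's name, and are called normalised counts. The submitters' processing notes name Salmon 1.2.1, STAR, featureCounts, DESeq2, limma and hg38, without roles. The annotation release and the strand setting are not given in the sources used here. Libraries were matched to columns by line, treatment letter and replicate, with the letters of OCI-AML3, MOLM-14 and KG-1 read as for MOLM-13 and SKM-1. The 12 columns of other samples were not used, and 12 labelled libraries were not analysed here. Between 53.6% and 74.2% of low values were whole multiples of 1 read (tolerance 0.02), so no count model was run, and read numbers are estimates.

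Values were log2(normalised count + 1), filtered at 10 or more in at least 3 libraries. limma 3.58.1 (R 4.3.3) was fitted with 10 group means, trend and robust moderation, and p-values were Benjamini-Hochberg adjusted over 22168 genes and called below 0.05. The script was tested on simulated data. Named genes were all KCNH members, up to 6 called members of each list by size, and members called in 3 or more lines. KCNH2 and the lists were chosen with earlier results of these data known. Alternatives covered the pseudocount, filter, scaling, replicate block, library weights, shallow libraries and each library or line left out. GENCODE 29, matched by unversioned identifier for 58064 genes, gave coordinates.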

Additional observations from a re-analysis of the deposited data

Results flagged for a closer look

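Of the genes named beside KCNH2, 7 responded to decitabine differently from line to line by limma's F-test of equal differences (13 list members in all did), and are given by their values. SGK1 differed between lines (Benjamini-Hochberg adjusted p = 0.0149), with differences of 2.81 in KG-1, 2.92 in MOLM-13 and -0.40 in OCI-AML3 on the log2(normalised count + 1) scale. KCNE3 (limma adjusted p = 0.0244) was higher in 5 of 5 lines, by 0.59 in MOLM-13 to 1.67 in KG-1. CXCR4 (limma adjusted p = 0.00206) ranged from 0.17 in MOLM-13 to 1.36 in KG-1. For PRKACA (limma adjusted p = 0.0482) the range was 0.16 in KG-1 to 0.92 in SKM-1.

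Among the channels, KCNG1 (limma adjusted p = 0.0165) had -1.98 in MOLM-14 and between -0.55 and 0.06 elsewhere. KCNJ12 (limma adjusted p = 0.00177) had 4.09 in SKM-1 and between -0.19 and 0.63 elsewhere, with uncertain counts because of KCNJ18. It passed the filter only through the SKM-1 decitabine libraries, so nothing is read from its F-test. KCNK5 (limma adjusted p = 4.88e-05) was higher in KG-1 (1.01) and OCI-AML3 (0.60) and lower in MOLM-14 (-0.76) and SKM-1 (-0.78).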

How the results depend on the processing

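KCNH2 was higher after decitabine in every line under each alternative run. Its mean over the 5 lines was 2.97, and 2.81 to 3.08 with 1 library left out in turn. The pseudocount moved it most: to 4.08 with 0.1 and 1.62 with 10. With a pseudocount of 0.1, OCI-AML3 had 6.41 and SKM-1 7.85. With 10, KG-1 had 2.17, MOLM-13 0.43, OCI-AML3 1.59 and SKM-1 2.23, and quantile normalization gave 4.68 in SKM-1. Leaving out 1 library gave 2.38 to 2.65 in KG-1, 0.88 to 1.5 in MOLM-13, 1.65 to 2.24 in MOLM-14, 3.19 to 4.57 in OCI-AML3 and 5.06 to 5.26 in SKM-1. MOLM-13 and OCI-AML3 fitted alone gave no value, since KCNH2 fell below the filter there.

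Same-numbered libraries deviated together only weakly (r -0.02 to 0.15 over genes), and not every r was above 0.1, so the numbers were not taken as pairs. As a hint from the data, 12 of 15 decitabine libraries correlated best with the DMSO library of their own number, among them 9 of 9 in the lines with a shallow replicate 2. With a replicate block the KCNH2 mean was 2.97, the genes called numbered 4877 against 4333, and cardiac calls 11 against 5.

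Cardiac calls were 3 and 8 with pseudocounts 0.1 and 10, 11 with library weights, 10 without the shallow libraries, 2 without SKM-1 and 2 to 7 with 1 library left out, the 2 without each SKM-1 decitabine library. Calls of other potassium channels, 3, were 5 with pseudocount 10 or library weights and 1 to 5 with 1 library left out. Those of voltage-gated channels, 4, were 2 with no filter or quantile normalization, 1 without MOLM-14 and 2 to 4 with 1 library left out. Neighbour calls, 7, were 4 with quantile normalization, 3 without MOLM-13, 4 without OCI-AML3, 2 without SKM-1 and 5 to 8 with 1 library left out. Partner calls, 13, were 12 to 14 with 1 library left out, and between 10 (without KG-1, MOLM-13 or SKM-1) and 17 (without the shallow libraries) elsewhere. Family calls were 0, but 1 without the shallow libraries. All genes called numbered 2292 without SKM-1 and 3797 to 4552 with 1 library left out. List members that differed between lines, 13, were 37 with library weights, 28 without the shallow libraries, 3 without MOLM-13, 3 without SKM-1 and 7 to 15 with 1 library left out. Of the 10 genes most like KCNH2, 5 were shared over libraries and 2 without MOLM-14. The KCNK5 mean turned to 0.0177 (scaling without mitochondrial genes), 0.0160 (without MOLM-13), 0.0033 (library weights) and 0.18 (without MOLM-14, or without SKM-1), and spanned -0.0499 to 0.0214 with 1 library left out. Without KG-1 the KCNK5 mean was -0.27 and was called (limma adjusted p = 0.0339). The cause of these changes was not tested. The OCI-AML3 values rest on at most 18.0 reads per library.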
